A study of Mus musculus with 6 samples.

Results

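Sterol and fatty acid synthesis genes were examined as a set of 35 genes, of 23420 gene symbols measured in each library. They were chosen by symbol, and they cover the regulators of lipid synthesis (5 genes), the steps from acetyl-CoA to lanosterol (10 genes, here the early steps), the steps from lanosterol to cholesterol (8 genes, the late steps), the liver X receptors (LXR) with cholesterol efflux and transfer (5 genes), and fatty acid synthesis and desaturation (7 genes). The files held 34 of them under the listed symbol and 1, Msmo1, under its older symbol Sc4mol. All 35 passed the filter on low values and were among 11844 tested genes.

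The libraries were made from bead-purified splenic B cells of young TLR9-/- MRL/lpr mice (MRL.Faslpr), which carry the lpr defect in Fas and develop lupus-like disease. Cells from 3 mice aged 5 to 7 weeks, male per the methods of the study, were cultured for 4 h, either unstimulated or with CL097, an agonist of TLR7, at 5 µg/ml. Each condition had 3 libraries, numbered 1 to 3. Both groups lacked TLR9, carried lpr and had a wild-type TLR7, so no TLR9-sufficient or non-autoimmune cells enter the comparison, and B cells were enriched by depleting cells positive for CD43, CD4, CD8, CD11b, CD11c or Gr-1. The comparison asks how engagement of TLR7 changed the transcripts of lipid synthesis in these cells. The labels do not state that a number marks a mouse, and p-values measure the spread between these libraries.

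Sterol regulatory element-binding proteins (SREBP) are membrane-bound transcription factors. When sterols in the endoplasmic reticulum are scarce, SCAP escorts them to the Golgi, where proteases release the active part, and INSIG proteins hold the complex back when sterols are plentiful. SREBP-2 mainly drives sterol synthesis and SREBP-1c fatty acid synthesis, whereas LXR, which are activated by oxysterols, induce the efflux transporters ABCA1 and ABCG1. Lymphocytes that leave rest draw on sterol and fatty acid synthesis for new membrane.

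Levels are given in counts scaled to library size (CPM) in libraries 1, 2 and 3, and changes as log2 fold changes (CL097 minus unstimulated log2 CPM) with the standard error (SE) and a limma p adjusted over all tested genes. A gene was called at an adjusted p under 0.05 with an absolute log2 fold change over 0.5. By that rule 9 of 35 members were called higher and 6 lower after CL097, against 24.0% and 23.6% of all tested genes, so the set as a whole held no excess of calls over the background. The calls differed between branches. Of the early sterol steps 7 of 10 were called higher and 0 lower, with a median log2 fold change of 0.81, and of the late steps 0 of 8 were called higher and 2 lower, with a median of 0.12. At an unadjusted p under 0.05 in this limma fit, which uses no pairs, 0 early steps were lower and 0 late steps higher as well. With the replicate number as a block in limma, the late steps Cyp51 (adjusted p = 0.00592) and Msmo1 (0.00248) were higher, short of the fold threshold. The early step Mvk was called lower in that block fit (adjusted p = 0.0133). The median log2 fold change was 0.002 over all tested genes in the main fit. Among efflux genes Abca1 fell 8.22-fold, and in lipogenesis Fasn and Acaca rose while Scd2 and Acss2 fell. In bulk samples a change in the number of cells of a type and a change in RNA per cell cannot be told apart, and the values were quantile-normalized, so a change is always relative to the rest of the same library.

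**Figure D1:**
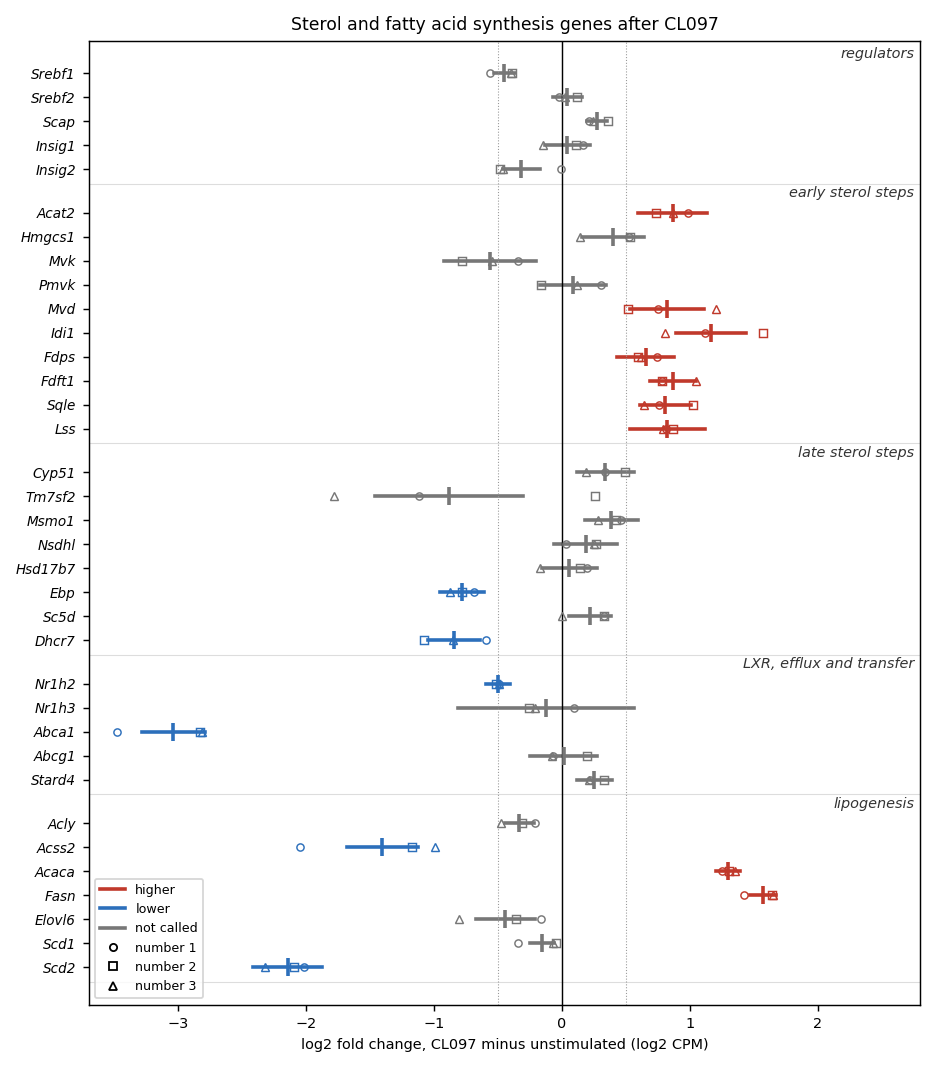
Log2 fold change of each of the 35 members (CL097 minus unstimulated log2 CPM), by branch. Vertical ticks are means and horizontal bars ± 1 SE from limma, open symbols are the differences between libraries of the same number, dotted lines mark ± 0.5 and colours mark calls; 7 of 10 early sterol steps lie to the right as called genes, and Abca1 and Scd2 lie farthest to the left at -3.04 and -2.14.

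Marker genes of other cell types differed between libraries. Summed erythroid markers were at 206 and 214 CPM in the number 1 libraries and between 4169 and 7587 CPM in the other 4, with the defining genes Hba-a1 and Hba-a2 at the floor throughout. The 13 monocyte and macrophage markers summed to 168, 423 and 702 CPM in unstimulated libraries 1, 2 and 3 and to 124, 253 and 436 CPM in CL097 libraries 1, 2 and 3, and 0 of 13 were called by limma (1, Lyz2, at an unadjusted p under 0.05). The 7 B cell markers found of 8 summed to between 6118 and 7007 CPM in unstimulated and between 2529 and 3035 CPM in CL097 libraries, and 5 of 7 were called lower. The 8 T cell markers found of 9 summed to between 47.7 and 71.0 CPM without and between 50.3 and 92.7 CPM with CL097, most of it Lck (43.4 to 88.3 CPM). The defining genes Cd3d, Cd3e and Cd3g stayed under 1 CPM in every library, while Cd8a (at most 2.19 CPM) and Cd8b1 (at most 1.16 CPM) were called higher and Cd5 lower. The 6 plasma cell markers summed to between 950 and 1478 CPM without and between 450 and 666 CPM with CL097, and 4 of 5 tested were called lower. Of the other lists, 1 of 5 tested dendritic cell genes (Zbtb46, log2 fold change 2.54) and 1 of 7 erythroid genes (Car1, 3.72) were called higher. In the NK cell list 1 of 4 tested genes was called lower (Klrd1, -3.84), and 0 of 6 neutrophil genes were called. The remaining tested genes of these lists, among them the erythroid genes Hbb-bs and Alas2, were not called. The dendritic cell gene Itgax went the other way from Zbtb46 (-0.88, lower only at an unadjusted p under 0.05 in limma). The part of these markers in the changes of the lipid genes was not tested.

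Of the transcripts of the regulators 0 of 5 were called higher and 0 lower by limma, against 24.0% and 23.6% of all tested genes. At an unadjusted p under 0.05 in limma Scap was higher and Srebf1 lower. Srebf1, which encodes SREBP-1, was at 103, 94.3 and 89.3 CPM in unstimulated and at 69.5, 71.9 and 67.6 CPM in CL097 libraries. Its groups did not overlap, but the log2 fold change (-0.45, SE 0.08, adjusted p = 0.00179) stopped short of the fold threshold. Srebf2, which encodes SREBP-2, was at 545, 442 and 429 CPM without and 537, 480 and 436 CPM with CL097, and the groups overlapped (log2 fold change 0.04, SE 0.12, adjusted p = 0.780). Release of the active protein was not measured, so these transcripts do not show by themselves whether SREBP processing changed.

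The escort and retention factors were likewise within the fold threshold. Scap was at 91.8 to 96.3 CPM without and 109 to 123 CPM with CL097, with groups that did not overlap (log2 fold change 0.27, SE 0.08, adjusted p = 0.0157). Insig1, itself a known SREBP target, had overlapping groups of 73.8 to 99.8 and 72.5 to 112 CPM (log2 fold change 0.04). Insig2 lay at 18.3 to 19.6 CPM without and 13.9 to 18.2 CPM with CL097 (log2 fold change -0.32, adjusted p = 0.0896).

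The early sterol steps held most of the higher calls. The largest difference was that of Idi1 (chromosome 13, 8885501 to 8892451, plus strand), which isomerizes isopentenyl diphosphate. Its level was 26.3, 13.0 and 20.5 CPM in unstimulated and 57.1, 38.5 and 35.8 CPM in CL097 libraries. Every CL097 library lay above every unstimulated one, with a mean log2 difference of 1.16 (SE 0.27, adjusted p = 0.00679), and the call held in all 19 alternative analyses. Acat2 (chromosome 17, 12942890 to 12960747, minus strand) encodes the cytosolic thiolase that joins acetyl-CoA units at the entry of the pathway, and was at 19.2, 12.8 and 11.9 CPM without and 38.0, 21.3 and 21.7 CPM with CL097. These groups did not overlap either (log2 fold change 0.86, SE 0.27, adjusted p = 0.0235). Its neighbour and close relative Acat3 was at 0.157 to 0.835 CPM, and how reads shared by the pair were counted is not given in the sources used here.

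Promoter windows of RefSeq (build GRCm38.p6, from 250 bases before to 50 after a start site) show where the letters of known sterol-response elements stand. The 4 members with the largest changes among called sterol, regulator and efflux genes were Abca1, Idi1, Fdft1 and Acat2, and all but Fdft1 had a window. Hmgcs1 was added after its values and motifs were seen, since it was the only 1 of 28 members with a window to hold the letters TCACNCCAC of a sterol regulatory element. Capitals mark TCACNCCAC, the NF-Y box CCAAT and the GC box GGGCGG, on either strand. Variants of these letters were not searched, so an unmarked window is not shown to lack an element. The windows are at chr13:8885356-8885655 (plus strand) for Idi1, chr17:12960676-12960975 (minus strand) for Acat2 and chr13:119690101-119690400 (plus strand) for Hmgcs1, each written 5′ to 3′ along its gene.
Idi1: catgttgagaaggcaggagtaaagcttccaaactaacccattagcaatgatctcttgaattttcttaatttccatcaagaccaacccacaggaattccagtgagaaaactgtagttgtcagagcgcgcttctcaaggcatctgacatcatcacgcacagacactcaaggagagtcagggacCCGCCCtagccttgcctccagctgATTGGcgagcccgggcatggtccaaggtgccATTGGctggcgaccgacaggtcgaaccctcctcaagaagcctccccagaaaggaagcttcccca
Acat2: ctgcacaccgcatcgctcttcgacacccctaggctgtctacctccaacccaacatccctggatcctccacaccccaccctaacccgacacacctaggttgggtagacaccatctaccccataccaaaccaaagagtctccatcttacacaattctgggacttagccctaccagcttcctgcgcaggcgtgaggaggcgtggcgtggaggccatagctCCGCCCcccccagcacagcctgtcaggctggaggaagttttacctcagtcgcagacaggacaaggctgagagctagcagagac
Hmgcs1: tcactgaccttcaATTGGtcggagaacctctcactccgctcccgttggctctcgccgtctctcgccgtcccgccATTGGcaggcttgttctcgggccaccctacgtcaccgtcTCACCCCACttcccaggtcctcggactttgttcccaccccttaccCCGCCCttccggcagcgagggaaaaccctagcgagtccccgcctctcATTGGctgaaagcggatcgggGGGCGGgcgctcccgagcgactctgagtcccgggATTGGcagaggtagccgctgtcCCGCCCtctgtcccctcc

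Idi1 carried 2 NF-Y boxes and 1 GC box, and Acat2 carried 1 GC box. Hmgcs1 carried 1 sterol regulatory element, 4 NF-Y boxes and 3 GC boxes. Of the 28 members with at least 1 window, 21 (75.0%) held an NF-Y box and 22 (78.6%) a GC box, against 41.1% and 38.2% of 27025 genes. These 27025 are all genes with a window, whether or not they passed the filter, while all 28 members passed it. The 2 sets are therefore unlike, and the excess was not tested among tested genes. A gene was counted if any of its windows held the letters. For Dhcr7 the NF-Y boxes were only in the window at chr7:143829964-143830263. TCACNCCAC was in 1.44% of all genes. The NF-Y box was found in 6 of 7 early and 8 of 8 late sterol genes, 4 of 5 regulators, 3 of 5 lipogenic genes and 0 of 3 genes of the LXR and efflux group. Early and late steps thus both held these letters, which are a description of sequence and not of binding.

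Steps from HMG-CoA synthase to farnesyl diphosphate were mixed. Mvd (chromosome 8, 122433601 to 122443422, minus strand), which decarboxylates mevalonate diphosphate, was at 20.7, 14.3 and 10.0 CPM without and 34.7, 20.4 and 23.0 CPM with CL097. It was higher in all 3 pairs of same-numbered libraries, but CL097 library 2 lay just below unstimulated library 1, so the groups overlapped (log2 fold change 0.82, SE 0.29, adjusted p = 0.0393). Fdps (chromosome 3, 89093588 to 89101959, minus strand), the farnesyl diphosphate synthase, was at 70.4, 48.7 and 47.5 CPM without and 118, 73.7 and 72.9 CPM with CL097. All CL097 values lay above all unstimulated values (log2 fold change 0.65, SE 0.22, adjusted p = 0.0325). Hmgcs1, the HMG-CoA synthase, was at 299, 187 and 215 CPM without and 429, 270 and 238 CPM with CL097. It was higher in all 3 pairs with overlapping groups and was not called (log2 fold change 0.40, SE 0.24, adjusted p = 0.187). The value was 0.14 without CL097 replicate 1, 0.25 without unstimulated replicate 2 and 0.59 without unstimulated replicate 1, and Hmgcs1 was called higher (0.53, adjusted p = 0.00128) under the block without number 3.

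The kinases of this stretch did not share that direction. Mvk (chromosome 5, 114444269 to 114460591, plus strand), which phosphorylates mevalonate, was at 16.6, 11.6 and 8.29 CPM without and 13.1, 6.75 and 5.66 CPM with CL097. It was lower in all 3 pairs, while the groups overlapped because number 1 was high in both conditions. The log2 fold change of -0.56 (SE 0.36) was not called at an adjusted p = 0.213. With the replicate number as a block Mvk was called lower (adjusted p = 0.0133), which brought the early steps to 7 called higher and 1 lower and all members to 9 higher and 7 lower, against 25.9% and 25.8% of all tested genes in that fit. It was also called lower without CL097 replicate 1 (log2 fold change -0.92, adjusted p = 0.0273) and without number 1 in both conditions (-0.67, adjusted p = 0.0359). Pmvk, the next kinase, had overlapping groups of 18.0 to 28.1 and 19.2 to 34.7 CPM (log2 fold change 0.09).

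All 3 squalene steps were called higher. Fdft1 (chromosome 14, 63145150 to 63179578, minus strand), the squalene synthase, was at 73.2, 55.3 and 46.0 CPM without and 126, 95.2 and 94.7 CPM with CL097. The groups did not overlap (log2 fold change 0.87, SE 0.18, adjusted p = 0.00378). In GENCODE 18.3% of its exonic bases overlap those of Ctsb on the opposite strand, which was at 315 to 770 CPM without and 109 to 482 CPM with CL097 (log2 fold change -1.05, SE 0.52, not called). Sqle (chromosome 15, 59315077 to 59331192, plus strand), the squalene epoxidase, was at 105, 63.4 and 80.8 CPM without and 178, 129 and 126 CPM with CL097, again without overlap (log2 fold change 0.81, SE 0.20, adjusted p = 0.00833). Lss (chromosome 10, 76531588 to 76557138, plus strand) encodes lanosterol synthase and closes the early steps. Its level was 31.0, 17.6 and 17.0 CPM without and 54.6, 32.2 and 29.4 CPM with CL097. Lss was higher in all 3 pairs by nearly the same amount (log2 differences 0.81, 0.87 and 0.79), but unstimulated library 1 lay within the CL097 range (log2 fold change 0.82, SE 0.30, adjusted p = 0.0416).

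In all, CL097 libraries lay wholly above unstimulated libraries in 5 of 10 early genes and wholly below in 0 of 10, against 33.4% and 32.4% of tested genes. The calls of Idi1, Fdft1 and Sqle held whichever library was left out, and the other 4 did not. Acat2 was no longer called without unstimulated replicate 2 (adjusted p = 0.0790) or 3 (0.0806). Mvd lost its call without unstimulated replicate 2 (0.0951) or 3 (0.120) or CL097 replicate 1 (0.103) or 3 (0.0580), and Fdps without unstimulated replicate 2 (0.107) or 3 (0.106) or CL097 replicate 1 (log2 fold change 0.42, adjusted p = 0.0665). Lss lost it without unstimulated replicate 2 (adjusted p = 0.133) or 3 (0.132) or CL097 replicate 1 (0.103) or 2 (0.0563). With the replicate number as a block all 7 were called, at adjusted p between 8.1e-05 for Fdft1 and 0.00221 for Mvd.

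**Figure D2:**
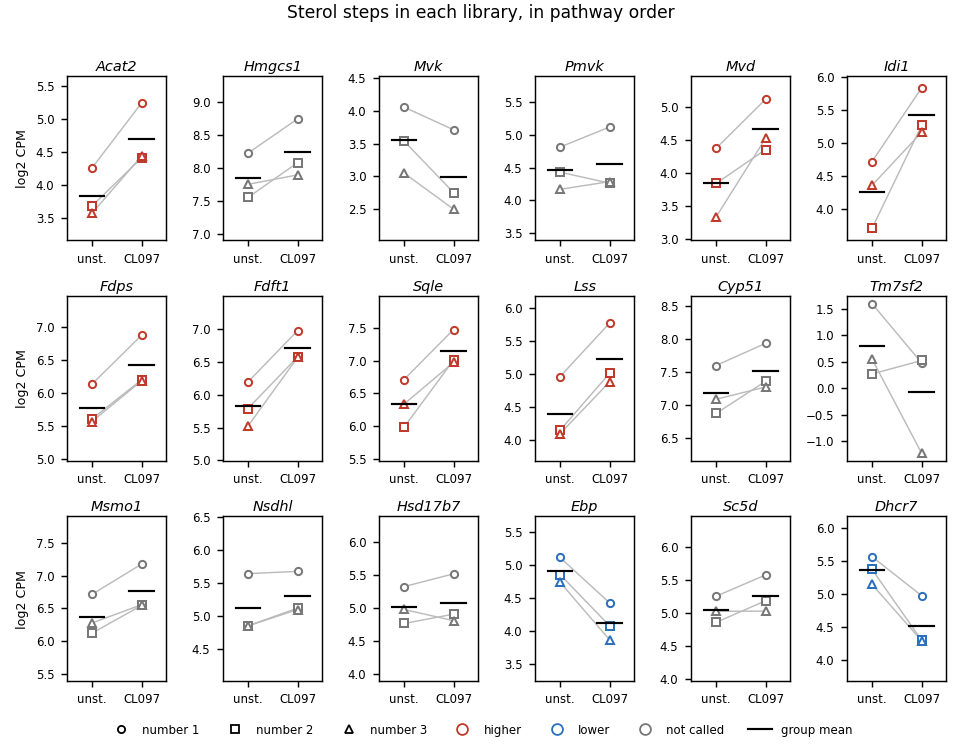
Log2 CPM of the 18 sterol genes in each of the 6 libraries, in pathway order from Acat2 to Dhcr7. Grey lines join libraries of the same number, black bars are group means and colours mark calls; number 1 (circles) lies at the top of both groups for nearly all genes, and the lines rise for most of the early genes and fall for Ebp and Dhcr7.

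Past lanosterol 0 of 8 genes were called higher and 2 lower, against 24.0% and 23.6% of all tested genes. Ebp (chromosome X, 8185329 to 8193512, minus strand), the sterol isomerase, was at 34.6, 28.9 and 26.7 CPM without and 21.5, 16.9 and 14.5 CPM with CL097. Dhcr7 (chromosome 7, 143823145 to 143848410, plus strand), which reduces the sterol ring to yield cholesterol, was at 47.5, 41.5 and 35.5 CPM without and 31.5, 19.7 and 19.6 CPM with CL097. In both genes every CL097 library lay below every unstimulated one. The change on the log2 scale was -0.78 for Ebp (SE 0.17, adjusted p = 0.00482) and -0.84 for Dhcr7 (SE 0.20, adjusted p = 0.00768), and both calls held whichever library was left out.

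Of the other 6 late genes none was called by limma in the comparison of all 6 libraries. Cyp51, the lanosterol demethylase, was at 117 to 194 CPM without and 155 to 245 CPM with CL097 and was higher in all 3 pairs (log2 fold change 0.34, SE 0.22, adjusted p = 0.223). Msmo1, the methylsterol oxidase, was at 69.7 to 105 and 93.4 to 144 CPM and was likewise higher in all 3 pairs (log2 fold change 0.39, SE 0.20, adjusted p = 0.139). Without unstimulated replicate 1 both were called higher, Cyp51 at 0.54 (adjusted p = 0.0482) and Msmo1 at 0.56 (adjusted p = 0.0438). With the replicate number as a block in limma, adjusted p was 0.00592 for Cyp51 and 0.00248 for Msmo1. Both stayed short of the fold threshold there and were not called. Nsdhl (log2 fold change 0.18), Hsd17b7 (0.06) and Sc5d (0.22), which encode a dehydrogenase, a ketoreductase and a desaturase of this stretch, had overlapping groups. Tm7sf2, a sterol reductase, was at 0.427 to 3.03 CPM, with a wide spread (log2 fold change -0.88, SE 0.58, adjusted p = 0.223). It was at -0.30 without CL097 replicate 3 and -0.48 without unstimulated replicate 1, and was called lower (-1.45, adjusted p = 0.0265) under the block without number 2, which made 3 late steps lower. In GENCODE 12.1% of Tm7sf2 exonic bases are shared with Vps51 on the same strand.

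Counted over the 18 sterol genes, 12 were higher and 3 lower in all 3 pairs, against 39.7% and 40.0% of all tested genes. The difference between early and late steps rests on counts and medians and was not tested as such.

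Replicate number 1 stood apart in this pathway. Of the 18 sterol genes, 17 were highest in number 1 in both conditions, including all 10 early genes, against 27.7% of all tested genes. The median log2 difference between number 1 and the mean of numbers 2 and 3 was 0.56 in unstimulated and 0.67 in CL097 libraries, and it reached 1.08 for Mvk in CL097 libraries. Of the LXR and efflux group 3 of 5, Nr1h3, Abcg1 and Abca1, were lowest in number 1 in both conditions (14.9% of tested genes), while Stard4 was highest there (0.34 and 0.29) and Nr1h2 differed little (-0.04 and -0.03). Number 1 also held the least erythroid and macrophage marker RNA, and the part of those markers in these differences was not tested. The deposited values carry a gene-by-gene offset common to both libraries of a number, so differences between numbers had an unknown size in the original values. After removal of number 1 from both conditions, without a block, 9 of 35 members were called higher and 7 lower. Of the 11844 tested genes 2996 were called higher and 2972 lower in that fit. An excess of member calls over this background was not tested.

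**Figure D3:**
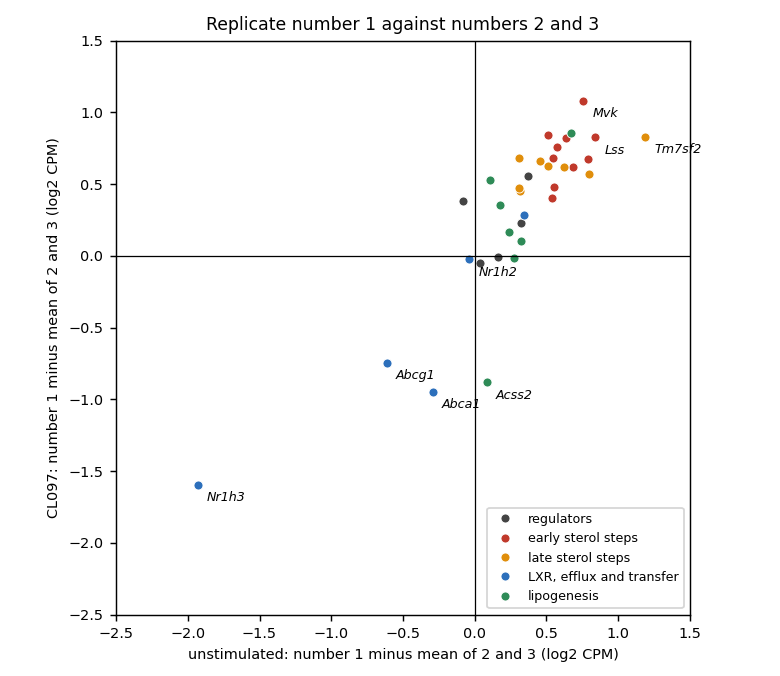
Log2 difference of number 1 from the mean of numbers 2 and 3 for each of the 35 members, in unstimulated (x axis) and CL097 (y axis) libraries, coloured by branch. Sterol genes all lie in the upper right, with values from 0.31 to 1.19, and Nr1h3, Abcg1 and Abca1 lie in the lower left.

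The largest change of any member was that of Abca1 (chromosome 4, 53030787 to 53159895, minus strand), the transporter that loads cholesterol onto apolipoprotein A-I. It was at 347, 408 and 444 CPM without and 31.2, 57.4 and 63.1 CPM with CL097. The groups were far apart, with the highest CL097 library well under the lowest unstimulated one. Its mean fell from 399.6 ± 48.7 to 50.6 ± 17.0 CPM (SD, n = 3). On the log2 scale it fell by 3.04 (SE 0.25, adjusted p = 2.1e-05), and the call held in all 19 alternatives, with values between -3.23 and -2.72. Its promoter window is shown for that reason, at chr4:53159846-53160145 on the minus strand, with GC boxes in capitals.
Abca1: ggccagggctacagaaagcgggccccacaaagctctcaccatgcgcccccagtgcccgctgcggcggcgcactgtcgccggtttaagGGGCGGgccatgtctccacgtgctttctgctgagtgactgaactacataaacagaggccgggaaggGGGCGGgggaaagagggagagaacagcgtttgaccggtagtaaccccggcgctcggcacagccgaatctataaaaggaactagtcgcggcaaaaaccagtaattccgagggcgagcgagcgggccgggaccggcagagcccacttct

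This window held 2 GC boxes and no NF-Y box. An LXR response element as 2 copies of AGGTCA in the same direction with 4 bases between them was in 0 of 28 members and in 0.0148% of all genes, so a search for these exact letters hardly finds anything in windows of this length.

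The partner transporter did not follow. Abcg1 was at 70.0, 90.6 and 127 CPM without and 66.5, 104 and 120 CPM with CL097. The groups overlapped almost fully (log2 fold change 0.01, SE 0.26, adjusted p = 0.968). Within each condition Abcg1 was lowest in number 1 and highest in number 3, the order of the summed macrophage markers. Nr1h3, which encodes LXR alpha and is known from macrophages, had the same order at 1.89, 5.08 and 10.2 CPM without and 2.02, 4.24 and 8.80 CPM with CL097 (log2 fold change -0.13, SE 0.69, adjusted p = 0.884). Abca1, which fell with CL097, was also lowest in number 1 and highest in number 3 in both conditions. The part of macrophage RNA in the levels of Abca1, Abcg1 and Nr1h3 was not tested.

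Nr1h2 (chromosome 7, 44549616 to 44553951, minus strand) encodes LXR beta. It was at 95.0, 106 and 90.1 CPM without and 67.6, 74.0 and 63.9 CPM with CL097, with groups that did not overlap and log2 differences of -0.49, -0.51 and -0.50 in the 3 pairs. Its mean log2 fold change (-0.50, SE 0.09, adjusted p = 0.00215) lay just past the fold threshold. The call was therefore lost when unstimulated replicate 2 (-0.44) was left out, or replicate 1 (-0.49) or 3 (-0.45) of the CL097 group, or number 2 in both conditions under the block (-0.49), and with a pseudocount or median centring (-0.49 in each). Stard4, a carrier of cholesterol between membranes, was at 66.5 to 90.7 CPM without and 83.6 to 105 CPM with CL097 (log2 fold change 0.25, adjusted p = 0.139). Stard4 was higher in all 3 pairs. Under the replicate block in limma its adjusted p was 0.0153, still short of the fold threshold and not called.

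Of the 7 lipogenic genes 2 were called higher and 2 lower, near the 24.0% and 23.6% of all tested genes. Fasn (chromosome 11, 120805846 to 120824547, minus strand), the fatty acid synthase, was at 358, 295 and 276 CPM without and 957, 920 and 866 CPM with CL097. Acaca (chromosome 11, 84129672 to 84401651, plus strand), the acetyl-CoA carboxylase that supplies malonyl-CoA, was at 78.2, 65.9 and 66.6 CPM without and 186, 162 and 169 CPM with CL097. In both genes the lowest CL097 library lay far above the highest unstimulated one. Fasn rose 2.97-fold (log2 fold change 1.57, SE 0.10, adjusted p = 7e-06) and Acaca 2.46-fold (1.30, SE 0.10, adjusted p = 1.3e-05), and both calls held in all 19 alternatives.

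The desaturase Scd2 (chromosome 19, 44293674 to 44306864, plus strand) was at 155, 93.6 and 101 CPM without and 38.2, 22.0 and 20.2 CPM with CL097. The groups did not overlap (log2 fold change -2.14, SE 0.27, adjusted p = 2.4e-04), a 4.41-fold fall that held in all 19 alternatives. Its paralog Scd1, also on chromosome 19, was at 1465, 1231 and 1197 CPM without and 1151, 1189 and 1139 CPM with CL097. All CL097 values lay below the unstimulated ones, but by a small margin, and Scd1 was not called (log2 fold change -0.16, SE 0.09, adjusted p = 0.175). Scd3 and Scd4 did not exceed 0.384 CPM. How reads shared by these related genes were counted is not given in the sources used here.

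**Figure D4:**
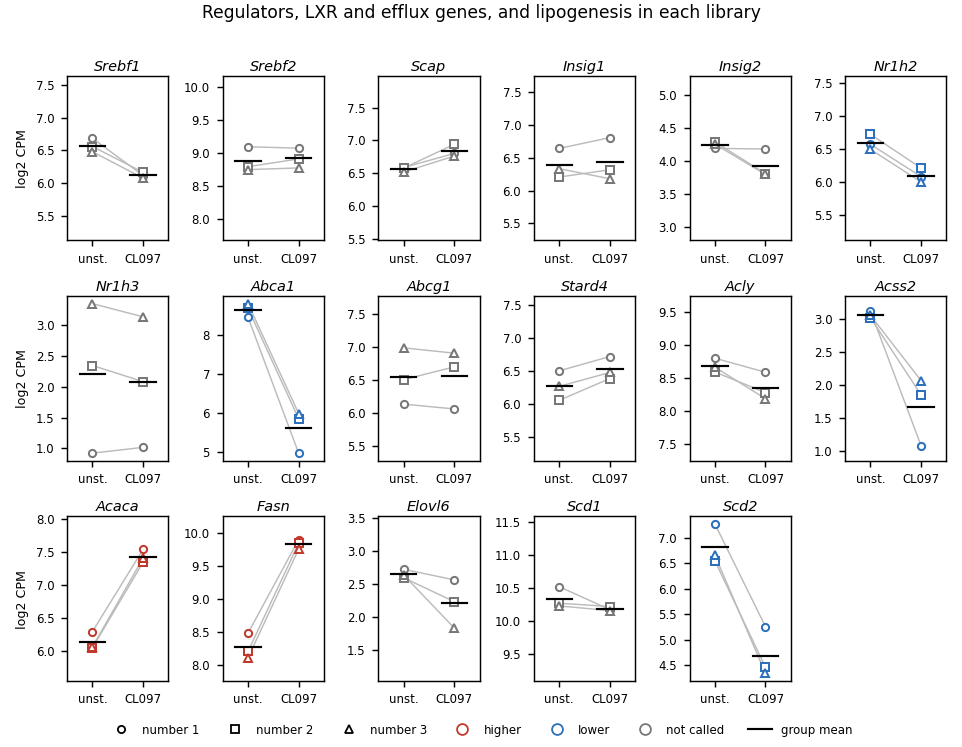
Log2 CPM of the regulators, the LXR and efflux genes and the lipogenic genes in each of the 6 libraries. Grey lines join libraries of the same number, black bars are group means and colours mark calls. Abca1, Acss2 and Scd2 fall and Acaca and Fasn rise in every pair. Abca1, Abcg1 and Nr1h3 keep the order of the numbers in both groups. Axis ranges differ between panels.

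Of the members that make acetyl-CoA from acetate or citrate, Acss2 was called lower and Acly was not called. The citrate carrier Slc25a1, which is not a member, was called higher (log2 fold change 1.22) and is described below. Acss2 (chromosome 2, 155517948 to 155585724, plus strand), which makes acetyl-CoA from acetate, was at 8.73, 8.14 and 8.34 CPM without and 2.11, 3.61 and 4.20 CPM with CL097. The groups did not overlap, and Acss2 fell 2.65-fold (log2 fold change -1.40, SE 0.28, adjusted p = 0.00277), a call that held in all 19 alternatives. Acly, which makes acetyl-CoA from citrate, was at 385 to 445 CPM without and 291 to 384 CPM with CL097. Its groups did not overlap, but the difference of -0.34 on the log2 scale (SE 0.11, adjusted p = 0.0329) was short of the threshold. Elovl6, an elongase of saturated chains, was at 6.04 to 6.60 and 3.56 to 5.91 CPM (log2 fold change -0.44, adjusted p = 0.131), and was called lower without CL097 replicate 1 (-0.62, adjusted p = 0.0379). In all 7 lipogenic genes the groups were apart, with 2 wholly above and 5 wholly below, against 33.4% and 32.4% of all tested genes.

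Other genes of lipid metabolism were read from 6 lists with 97 genes in all. Of 88 tested, 25 were called higher and 21 lower, near the 24.0% and 23.6% of all tested genes. Levels below are mean CPM ± SD (n = 3).

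Of 12 genes for SREBP processing and sterol-regulated degradation 2 were called higher and 2 lower (against 24.0% and 23.6% of tested genes), with a median log2 fold change of 0.03. Ube2g2, a ubiquitin-conjugating enzyme of the endoplasmic reticulum, rose from 61.1 ± 0.80 to 124 ± 0.05 CPM (log2 fold change 1.02, SE 0.07). Mbtps2, the site-2 protease that releases SREBP, rose from 32.3 ± 2.56 to 51.9 ± 0.31 CPM (0.69, SE 0.09). Erlin1, a membrane protein that binds cholesterol, fell from 37.9 ± 1.26 to 24.0 ± 0.97 CPM (-0.66, SE 0.09), and the ubiquitin ligase Rnf145 from 272 ± 6.80 to 176 ± 6.97 CPM (-0.63, SE 0.07). Mbtps1, the protease that cuts before it, was not called (-0.22).

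In the isoprenoid branch, which leaves the sterol pathway at farnesyl diphosphate, 4 of 12 genes were called higher and 1 lower (median 0.10), again beside 24.0% and 23.6% of tested genes. Rabggtb, a subunit of the enzyme that prenylates Rab proteins, rose from 49.7 ± 4.73 to 116 ± 2.77 CPM (log2 fold change 1.23, SE 0.09). Nus1, a subunit of the dolichol-forming enzyme, rose from 96.3 ± 11.5 to 204 ± 10.1 CPM (1.09, SE 0.10). The farnesyltransferase subunits diverged, since Fntb rose from 9.06 ± 0.87 to 19.1 ± 3.70 CPM (1.07, SE 0.17) and Fnta fell from 50.5 ± 1.52 to 35.2 ± 2.99 CPM (-0.52, SE 0.10).

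Cholesterol esterification, storage and intracellular transport had 3 of 15 genes called higher and 7 lower (median -0.49), where the background was 24.0% and 23.6%. Tmem97, a sterol-binding protein of the endoplasmic reticulum, rose from 17.2 ± 3.02 to 67.6 ± 9.38 CPM (log2 fold change 1.98, SE 0.15). Scarb1, a receptor for high-density lipoprotein, rose from 19.6 ± 2.10 to 58.4 ± 3.51 CPM (1.58, SE 0.11). Lipa, the lysosomal lipase that frees cholesterol from its esters, fell from 204.5 ± 46.4 to 55.2 ± 15.2 CPM (-1.90, SE 0.23), and the lipid transfer protein Osbpl9 fell from 354 ± 15.1 to 193 ± 7.87 CPM (-0.88, SE 0.07).

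Of 10 tested genes related to oxysterols and LXR, 4 were called higher and 3 lower (median 0.15), with a background of 24.0% and 23.6%. The known LXR targets Smpdl3a and Mylip fell, as Abca1 did. Smpdl3a, a phosphodiesterase, fell from 38.4 ± 3.46 to 11.7 ± 3.18 CPM (log2 fold change -1.75, SE 0.21), and Mylip, a ubiquitin ligase for lipoprotein receptors, from 143 ± 6.36 to 44.0 ± 11.8 CPM (-1.74, SE 0.19). Lpcat3, a phospholipid acyltransferase that is also a known LXR target, rose from 51.2 ± 4.31 to 77.8 ± 10.3 CPM (0.60, SE 0.12), and the coactivator Ncoa5 rose from 65.6 ± 3.81 to 126 ± 11.3 CPM (0.94, SE 0.09). LXR targets of this list therefore did not move in 1 direction.

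Fatty acid activation, elongation and desaturation had 6 of 19 tested genes called higher and 2 lower (median 0.38), compared with 24.0% and 23.6% of all tested genes. Hacd3, a dehydratase of chain elongation, rose from 53.7 ± 6.08 to 148 ± 27.3 CPM (log2 fold change 1.45, SE 0.14). Slc25a1, the mitochondrial citrate carrier, rose from 55.5 ± 6.08 to 130 ± 17.3 CPM (1.22, SE 0.12), and the elongase Elovl1 from 71.7 ± 8.74 to 129 ± 11.0 CPM (0.85, SE 0.11). Tecr, the reductase that ends an elongation cycle, fell from 95.2 ± 21.6 to 52.5 ± 1.89 CPM (-0.83, SE 0.16).

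Of 20 tested genes for glycerolipids and phospholipids 6 were called higher and 6 lower (median -0.13), not far from the background of 24.0% and 23.6%. Agpat5, an acyltransferase, rose from 18.2 ± 3.16 to 69.6 ± 0.58 CPM (log2 fold change 1.95, SE 0.14). Lpin1, a phosphatidate phosphatase, fell from 37.2 ± 5.55 to 12.4 ± 1.91 CPM (-1.59, SE 0.16), the acyltransferase Gpat3 from 25.3 ± 4.56 to 9.55 ± 2.20 CPM (-1.42, SE 0.21) and the ethanolamine kinase Etnk1 from 741 ± 106 to 327 ± 62.7 CPM (-1.19, SE 0.16). Adjusted p of the genes named from the 6 lists was at most 0.00273 in limma where they were called.

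**Figure D5:**
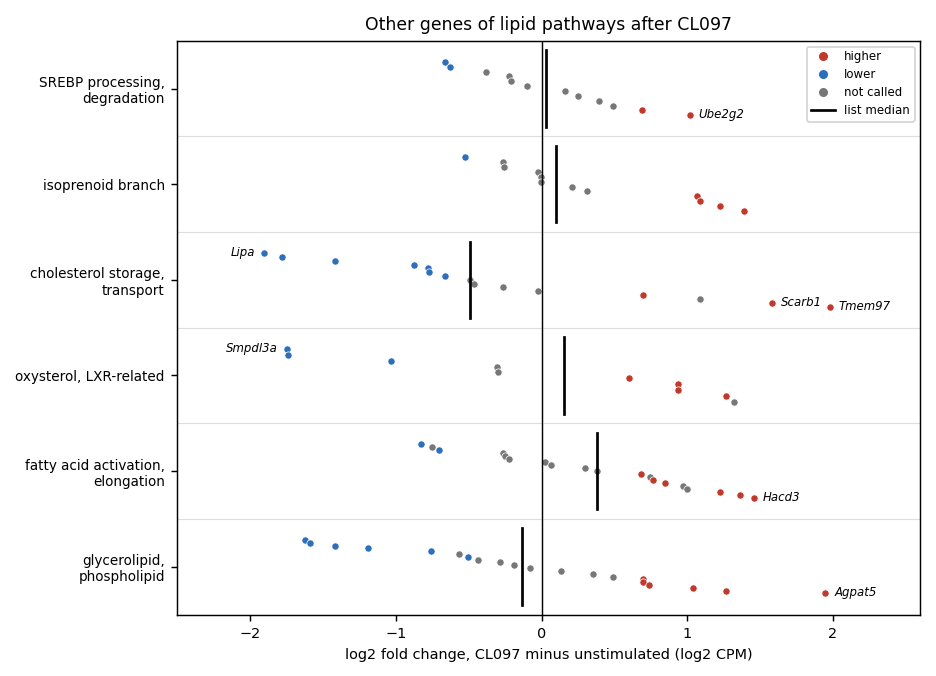
Log2 fold change (CL097 minus unstimulated log2 CPM) of the 88 tested genes of 6 further lipid lists. Each point is a gene, coloured by call, and vertical bars are list medians; the storage and transport list has its median at -0.49 and holds both Tmem97 at 1.98 and Lipa at -1.90.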

How the data were processed

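Poly(A) RNA of 6 libraries was sequenced with a stranded kit. The authors counted reads per gene and applied voom with quantile normalization, and the deposited values are log2 CPM. The submitters' processing notes name STAR 2.6.1a, featureCounts of Subread 2.0.1, limma, FastQC 0.11.7 and Trim Galore 0.6.5, and mouse build mm10. Annotation and strand setting: not given in the sources used here. Reads of 7 members whose exons overlap another gene in the files (5 on the opposite strand) may be shared. The number of reads reached per library is unknown, so counting intervals are not given. Symbols were matched to GENCODE M21 (GRCm38) for coordinates and to RefSeq synonyms and promoters.

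Genes with at least 0.5 CPM (log2 CPM of -1) in at least 3 libraries were kept, and limma 3.58.1 (R 4.3.3) was fitted on these log2 CPM with condition as the sole term, a mean-variance trend and no pseudocount. P-values are two-sided and Benjamini-Hochberg adjusted over 11844 genes. The fit was tested on simulated data with independent noise in each library. A shift shared by libraries of a number was not simulated, so that test does not bear on it. Members, lists and tests were chosen with earlier results of these data known. The value in every library is given for called members and for those whose call changed with the replicate block, and other members are given by range or, where a comparison uses them, in full. Of each further list at most 4 called genes with the largest absolute change and a mean of at least 10 CPM in either group are named, besides Mbtps1, which was chosen after its values were seen.

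Deviations from the group means correlated at 0.568, 0.326 and 0.458 between libraries of number 1, 2 and 3, all over 0.1. Numbers 2 and 3 also exceeded 0.1 with each other, at 0.209 (unstimulated 2 with CL097 3) and 0.172 (unstimulated 3 with CL097 2). Number 1 correlated at -0.485 to -0.347 with the other numbers. The same-number values were the highest, by less for numbers 2 and 3. Libraries of equal number are therefore called pairs, but the tests quoted use no pairs unless the replicate block is named. The labels do not state what a number marks. Part of this may come from the deposited values: 2655 to 3108 of 17935 genes that were not constant had equal values, to the 3 decimals deposited, in the libraries of a number, against 347 to 396 between numbers, a shift shared by number that the sources used here do not describe. It cancels in same-number differences, and it enters a fold change when 1 library is left out. Alternatives were other filters, a pseudocount of 1 CPM, median centring, cyclic loess, no variance trend, robust variances, a log2 fold threshold of 1, the replicate block, and leaving out libraries or numbers; leaving number 1 out of both conditions without a block was chosen after seeing the data.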

Additional observations from a re-analysis of the deposited data

How the results depend on the processing

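Over 19 alternatives and 35 members, 591 of 665 values kept their direction and side of the threshold, 39 lost a call, 11 gained one and 24 changed sign. Idi1, Abca1, Fasn, Acaca, Scd2 and Acss2 kept their calls throughout. In the fit with a replicate block 9 members were called higher and 7 lower, Mvk being the added call (adjusted p = 0.0133), and no other member's call changed. Members called higher numbered 5 with no filter on low values, 5 with no variance trend and 3 at a log2 fold threshold of 1, where 3 were called lower; early sterol steps called higher numbered 3, 3 and 1 in the same alternatives and 4 with robust variances, and 0 late steps were called lower at the threshold of 1. All tested genes gave 1533 higher and 1627 lower at that threshold. Genes called higher numbered 2856 with no variance trend and 2817 with robust variances, against 2837 in the main fit. With no filter on low values 2847 of 17935 genes were called higher. The background thus hardly moved in these 3 alternatives, while the members called higher became fewer. With 1 library left out, 5 to 11 members were called higher, 3 to 7 early and 0 to 2 late steps. Of all tested genes 2656 to 2872 were called higher in these fits. The causes were not tested.

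The changes of sign were all in members near 0. With 1 library left out the log2 fold change ran from -0.037 to 0.15 for Srebf2, from -0.14 to 0.17 for Insig1, from -0.20 to 0.26 for Pmvk, from -0.0062 to 0.45 for Nsdhl, from -0.17 to 0.21 for Hsd17b7, from -0.77 to 0.45 for Nr1h3 and from -0.19 to 0.26 for Abcg1. Without number 1 in both conditions, with or without the block, it was -0.021 for Insig1, -0.025 for Pmvk and -0.014 for Hsd17b7. For Abcg1 it was -0.0107 with cyclic loess and -0.0765 without number 2 in both conditions. With 3 libraries per group, unknown depth and an undescribed shift shared by number, an uncalled member is not shown to be unchanged.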
